A study of Mus musculus with 2 samples.

Results

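Translation initiation factors load the small ribosomal subunit with initiator tRNA, bring it to the capped mRNA and select the start codon, and elongation factors then deliver aminoacyl-tRNA and move the ribosome along the mRNA. The genes examined were the protein-coding genes on autosomes whose symbols begin with Eif1 to Eif6, Eef1 or Eef2, which cover the factors, their regulatory kinases and binding proteins and the enzymes that modify them. The rule found 64 such genes among 20337 protein-coding autosomal genes of the deposited tables. A further gene of the later annotation, Eef1akmt4, met the rule by symbol and was not analysed here. Gamma subunit genes of eIF2 and the gene Eif1ax are sex-linked and so fell outside the rule.

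The study measured RNA of liver from mouse embryos of strain B6NCrl at embryonic day 11.5, untreated and described as healthy, in 2 libraries that formed 1 group. Each library came from a pool of male and female embryos, 109 embryos for replicate 1 per its label, and was made by a SmartSeq protocol from 1 cell-equivalent of total RNA, so each holds a very small sample of the transcripts of its pool. Both labels point to the same donor record, and the samples are numbered as biological replicates 1 and 2, so the spread given as SD is that between these libraries and may be technical. With no second condition in the labels, levels were described within the tissue and between the libraries, with no test.

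Fetal liver at this age makes red blood cells while its own epithelium forms. In erythroid cells the rate of protein synthesis is tied to haem through Eif2ak1, the haem-regulated kinase, which phosphorylates the alpha subunit of eIF2 when haem is scarce. The other kinases of the same substrate respond to double-stranded RNA (Eif2ak2), to stress of the endoplasmic reticulum (Eif2ak3) and to amino acid shortage (Eif2ak4).

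The total expected count, an estimated number of reads that need not be whole, was 33289699 in replicate 1 and 32607453 in replicate 2. The libraries differed in their read counts by 888 per degree of freedom of chi-square over 9535 genes, far beyond the noise of read counting. That value treats reads as independent, which amplified copies are not, so it cannot separate the sampling of few molecules from other differences. Levels are given in TPM, the deposited relative transcript abundance, which corrects for transcript length. Of the markers that define the tissue, all 10 erythroid and all 10 hepatoblast genes reached TPM 1 in each library, with summed levels of 1876 and 1635 TPM for the erythroid list and 11885 and 10568 TPM for the hepatoblast list. Macrophage markers summed to 478 TPM in replicate 1 and 192 in replicate 2, with C1qa and Csf1r at 0 in replicate 2, and 6 heart muscle markers to 50.2 and 268.5 TPM, with Myl7, Myl2 and Tnni3 at 0 in replicate 1. Actc1, which made up most of the heart muscle sum of replicate 1, went the other way, at 43.5 and 30.3 TPM. Mesenchymal markers summed to 177 and 424 TPM, while Pdgfrb among them went the other way, at 11 and 0.01 TPM. Since these are bulk samples, fewer cells of a type and less RNA per cell cannot be told apart.

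Promoter sequences of the 4 kinases of eIF2 alpha are shown first, because these kinases share a substrate and only Eif2ak1 was read in both libraries. They run from 100 bases before to 25 bases after the RefSeq start, 5′ to 3′, on build GRCm38.p6. Capitals mark the letters CGGAAG on either strand, a longer string around GGAA, the core that ETS-family factors recognise. Shorter GGAA matches are not marked, and the windows of Eif2ak1, Eif2ak2 and Eif2ak3 hold them as well.
Eif2ak1 (chr5:143817692-143817816, plus strand): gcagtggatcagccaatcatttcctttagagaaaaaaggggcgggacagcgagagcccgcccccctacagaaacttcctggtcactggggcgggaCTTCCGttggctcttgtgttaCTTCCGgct
Eif2ak2 (chr17:78882548-78882672, minus strand): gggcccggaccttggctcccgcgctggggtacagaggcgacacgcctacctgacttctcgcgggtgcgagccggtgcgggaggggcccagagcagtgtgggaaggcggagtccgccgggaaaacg
Eif2ak3 (chr6:70844415-70844539, plus strand): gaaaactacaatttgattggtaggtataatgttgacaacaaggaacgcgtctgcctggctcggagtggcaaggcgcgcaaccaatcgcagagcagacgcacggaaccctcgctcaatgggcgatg
Eif2ak4 (chr2:118388517-118388641, plus strand): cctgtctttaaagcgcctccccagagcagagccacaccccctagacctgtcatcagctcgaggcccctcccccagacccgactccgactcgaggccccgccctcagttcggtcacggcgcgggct

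Eif2ak1 held 2 matches to the full CGGAAG close to its start, and the other kinases held no such full match in their windows of 300 bases. RefSeq windows were found for 48 of the 64 genes, 1 window a gene, and 23 of the 48 (47.9%) held the letters, against 22.6% of the 15483 windows of all protein-coding autosomal genes. Among genes detected in both libraries the shares were 22 of 40 (55%) for the factor genes and 38.9% of 4527 windows in all. The GATA letters AGATAA or TGATAA, on either strand, were in 1 of the 48 windows, that of Eif3c, and in 15.2% of all windows, and no kinase window held them. Among detected genes these shares were 1 of 40 (2.5%) and 8.95%. TATAAA or TATATA, on either strand, were in 6 of the 48 (12.5%) and in 15.5% of all. Among detected genes the order turned, with 6 of 40 (15%) for the factor genes and 8.28% in all. Such matches describe the letters of these windows and are not evidence of binding.

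Among 11 genes with CGGAAG on either strand inside the 50 bases around the start, the 4 with the highest levels are shown from 25 bases before to 25 bases after it, to show where the match lies.
Eef1b2 (chr1:63176806-63176855, plus strand): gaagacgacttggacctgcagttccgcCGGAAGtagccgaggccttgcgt
Eef2 (chr10:81176606-81176655, plus strand): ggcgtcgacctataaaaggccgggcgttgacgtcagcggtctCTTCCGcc
Eif3m (chr2:105017003-105017052, minus strand): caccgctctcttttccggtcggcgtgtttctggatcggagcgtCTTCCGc
Eif3l (chr15:79075198-79075247, plus strand): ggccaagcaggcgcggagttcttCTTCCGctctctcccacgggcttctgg

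Most of these genes were expressed in the fetal liver. At a TPM of at least 1, 52 of the 64 were detected in both libraries, or 81.2%, where 27.9% of all protein-coding autosomal genes were. Of the 55 detected in either library, 52 were detected in both, 94.5% against 62.0%. Another 3 were detected in 1 library only (Eif2ak4 and Eif4enif1 in replicate 2, Eif4ebp3 in replicate 1), 4.69% against a background of 17.1%. The remaining 9 were under TPM 1 in both, 14.1% against 55.1%, and 6 of these had no read at all, 9.38% against 47.7%. High levels were frequent, as 32 genes reached a mean of 100 TPM, a share of 50%, against 6.55% of all genes. The median over the 64 genes of the mean log2(TPM + 1) was 6.45, and 0.01 over all 20337 genes. Restricted to genes whose mean reached 1 TPM, the medians were 7.01 and 3.76. Together the factor genes held 1.7% ± 0.068 of TPM (SD, n = 2), with 1.75% in replicate 1 and 1.65% in replicate 2. Of all reads they took 2.19% and 2.16%.

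**Figure D1:**
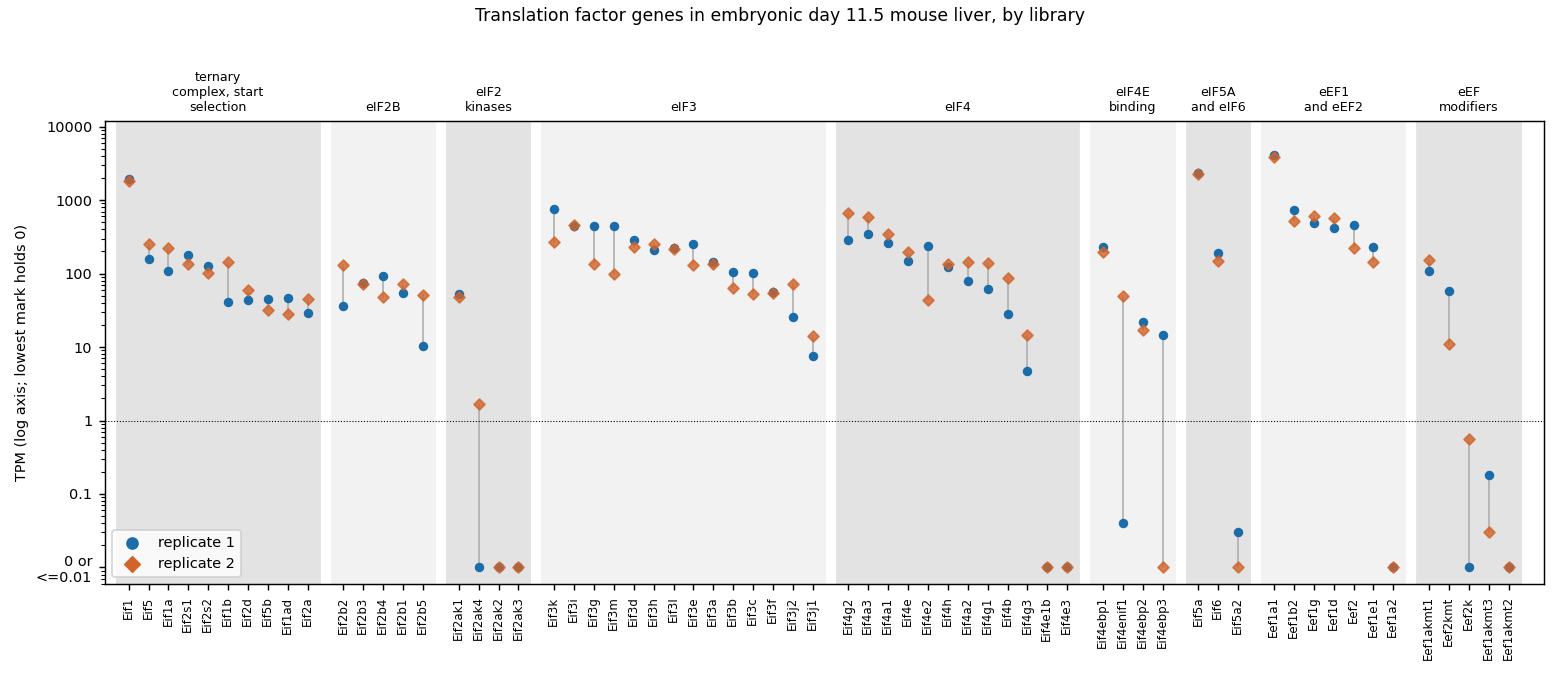
TPM on a log axis of each of the 64 genes in replicate 1 (circles) and replicate 2 (diamonds), grouped by factor complex and ordered by mean level; values of 0 sit at the lowest mark and the dotted line is TPM 1. Eef1a1, Eif5a and Eif1 stand above 1000 TPM in both libraries, and Eif2ak1 is the only eIF2 kinase near 50 TPM.

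A small number of genes carried much of the total. The 3 whose mean reached 1000 TPM, Eef1a1, Eif5a and Eif1, held 47.7% of the summed TPM of the list in replicate 1 and 47.8% in replicate 2. By group, the eEF1 and eEF2 factors held 36.3% ± 0.741 of the list's TPM (SD, n = 2). The eIF3 subunits held 20% in replicate 1 and 13.2% in replicate 2. The eIF4 cap-binding group, as defined here, held 9.01% and 14.3%, so these groups changed order between the libraries. The eIF3 sum was 3500 TPM in replicate 1 and 2180 in replicate 2, and the eIF4 sum 1576 and 2361, so both groups moved. The eIF4 group counts Eif4g2 (290 and 669 TPM), which lacks the eIF4E binding part, and Eif4a3 (347 and 589 TPM), of the exon junction complex. Without these genes the eIF4 group would stay below eIF3 in both libraries. The same holds without Eif4a1 alone (257 and 346 TPM), so the swap is not particular to them. Among eIF3 genes, Eif3k (764 and 271 TPM), Eif3m (444 and 97.8) and Eif3g (439 and 133) were lower in replicate 2. The group of eIF5A and eIF6 held 14.4% in each.

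**Figure D2:**
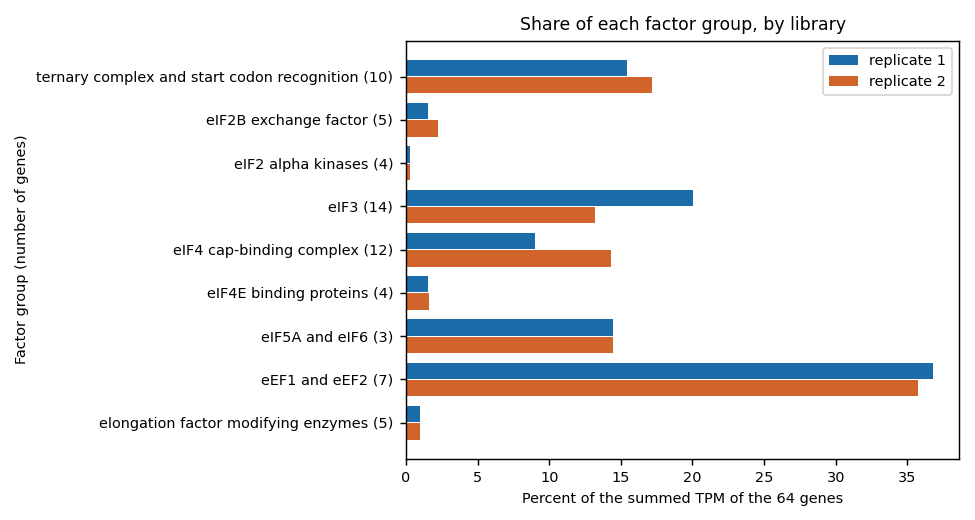
Percent of the summed TPM of the 64 genes held by each factor group, with the number of genes in parentheses and 1 bar per library. The eEF1 and eEF2 bars are the longest in both libraries, at 36.8% and 35.8%. The eIF3 and eIF4 bars swap order, with Eif4g2 and Eif4a3 counted in the eIF4 group.

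Start codon selection is carried out by eIF1, eIF1A, eIF2 with initiator tRNA, and eIF5, and eIF5B then joins the large subunit. All 10 genes of this group were detected in both libraries. Eif1, whose product keeps the scanning ribosome from starting at wrong codons (chromosome 11, 100319885 to 100322096, mm10), had 1917 TPM in replicate 1 and 1818 in replicate 2, ranking 47th of the 20337 genes by mean. Its paralog Eif1b had 41.6 and 145 TPM, so Eif1 exceeded it 46.1-fold in replicate 1 and 12.6-fold in replicate 2. Eif1 was the higher of the pair in both libraries, by over 10-fold in TPM. In replicate 2 the expected counts were 30581.5 for Eif1 and 3473 for Eif1b, a lead of less than 10-fold in reads. Eif5, the GTPase activator of eIF2, had 159 and 256 TPM, and Eif1a 108 and 223.

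The alpha and beta subunits of eIF2, the GTPase that carries initiator tRNA, stood close to each other. Eif2s1, the alpha subunit and substrate of the kinases, had 179 and 136 TPM. Eif2s2, the beta subunit, had 127 and 100.4. Their ratio was 1.38 ± 0.039 (SD, n = 2), so the alpha subunit was slightly higher in both. The gamma subunit is made from sex-linked genes outside the rule: the X-linked Eif2s3x had 73.4 and 51 TPM and the Y-linked Eif2s3y 0 and 8.94. Eif1ax, the X-linked form of Eif1a, had 131 and 235 TPM, and moved the same way between the libraries as Eif1a. Lower members were Eif2a at 28.7 and 45.7 TPM and Eif1ad at 46.9 and 28.5. The Eif1ad transcript shares 428 bases with Banf1 on the opposite strand, a gene at 782 and 805 TPM. Whether counting used strand is not given in the sources used here. Reads in the shared stretch may therefore belong to either gene, and the Eif1ad level is uncertain.

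The exchange factor eIF2B reloads eIF2 with GTP and is the enzyme blocked when eIF2 alpha is phosphorylated. All 5 subunits were detected in both libraries, with mean levels from 30.3 TPM (Eif2b5, the catalytic epsilon subunit) to 83.7 TPM (Eif2b2, the beta subunit). Eif2b3, the gamma subunit, had 74.7 and 72.1 TPM and was nearly level between libraries. Eif2b2 had 36.6 and 131 TPM and Eif2b5 10.2 and 50.3, both lower in replicate 1. Eif2b4, the delta subunit, had 93.2 and 48.6 TPM. It shares 204 bases with Snx17 on the opposite strand, at 65.9 and 67 TPM, so its level carries the same uncertainty.

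Of the kinases that phosphorylate eIF2 alpha, Eif2ak1 was the one with a sizeable level (chromosome 5, 143817788 to 143904251, mm10). It had 52.9 TPM from 6576 reads in replicate 1 and 47.6 TPM from 5918 reads in replicate 2, a mean of 50.3 ± 3.72 (SD, n = 2). Eif2ak4 had no read in replicate 1 and 1.69 TPM from 239 reads in replicate 2. Eif2ak2 and Eif2ak3 had no read in either library. Eif2ak1 was therefore above each of the other kinases in both libraries, with no overlap.

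Per base of transcript and against a floor of 3 reads per library, Eif2ak1 was at least 759-fold above Eif2ak2 in replicate 1 and at least 679-fold in replicate 2. Against Eif2ak3 the bounds were 1044-fold and 935-fold, and against Eif2ak4 in replicate 1 at least 1890-fold. In replicate 2, where Eif2ak4 was read, the ratio was 28.2-fold. These bounds allow for read counting only. Amplified copies of the same cDNA count more than once and each library sampled 1 cell-equivalent, so they are not bounds on RNA in the tissue. Over both libraries the mean TPM of Eif2ak1 was 59.5-fold that of the other kinases summed, a value that falls to 28.2-fold without replicate 1 and has no finite value without replicate 2.

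Nearly all of the Eif2ak1 abundance was assigned to 1 transcript, 99.1% in replicate 1 and 99.9% in replicate 2. That transcript shares 488 bases with Aimp2, a scaffold gene of the aminoacyl-tRNA synthetase complex on the opposite strand, at 80.8 and 99.9 TPM, so part of the reads may belong to either gene. The level of Eif2ak1 stayed below that of each of the 10 erythroid markers in both libraries. The lowest of them was Epor, the erythropoietin receptor, at 87.5 TPM in replicate 1, and Gata1, the erythroid transcription factor, at 51.4 TPM in replicate 2. Eif2ak1 ranked 2392nd of the 20337 genes by mean TPM.

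A list of the integrated stress response, the programme around these kinases, held 10 genes, of which 6 were detected in both libraries. One of the 6 was Gcn1, the activator of Eif2ak4, at 45.1 and 59.3 TPM. Asns, asparagine synthetase, had the highest level at 533 and 234 TPM. Atf4, the transcription factor translated when eIF2 alpha is phosphorylated, had 141 and 189 TPM. Chac1 had no read in either library. Ddit3, the stress factor CHOP, had 52.6 TPM in replicate 1 and no read in replicate 2. Of 7 members whose mean reached 10 TPM, 4 were at least 2-fold higher in replicate 1 (Asns, Ddit3, Ppp1r15a and Ppp1r15b) and 0 in replicate 2, while 26% of all genes at that level were 2-fold higher in replicate 1. Sesn2 of the same list averaged 6.285 TPM, below that level, and went the other way. All of its 1247 reads, or 12.57 TPM, came from replicate 2. The macrophage markers, like the 4 genes named, were lower in replicate 2. The part of these markers in the values of the list was not tested.

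The eIF3 complex holds the small subunit together with mRNA and other factors. All 14 of its genes were detected in both libraries. Their median TPM was 217 in replicate 1 and 131 in replicate 2. Eif3k had the highest mean, from 764 and 271 TPM. Eif3i, a core propeller subunit, followed with 447 and 453 TPM, so replicate 2 alone would put Eif3i first. Leaving aside the Eif3j copies, the highest subunit exceeded the lowest 13.8-fold in replicate 1 and 8.56-fold in replicate 2.

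The subunits differed in how well the libraries matched. Eif3i, Eif3l (225 and 215 TPM), Eif3a, the large scaffold subunit (143 and 136 TPM), and Eif3f (55.3 and 53.9 TPM) lay close together. Eif3g, an RNA-binding subunit, had 439 and 133 TPM, and Eif3m 444 and 97.8, both more than 3-fold lower in replicate 2. Eif3c and Eif3b, further core subunits, had 100.6 and 52.9, and 104 and 63.2 TPM. Eif3j1 and Eif3j2 match over 2379 bases at 99.4% identity, so their separate levels, 7.62 and 14.3 TPM for Eif3j1 and 26 and 72.5 for Eif3j2, are uncertain. Their sum was 33.7 TPM in replicate 1 and 86.8 in replicate 2. Eif3j1 also shares 541 bases with Spg11 on the opposite strand, at 39.3 and 0 TPM.

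The eIF4 factors bind the cap (eIF4E), unwind the leader (eIF4A with eIF4B and eIF4H) and bridge to the ribosome (eIF4G). Of 12 genes, 10 were detected in both libraries. Eif4g2, a scaffold that lacks the eIF4E binding part, had 290 and 669 TPM, the highest mean of the group. Eif4a3, the helicase of the exon junction complex, came next with 347 and 589 TPM. The helicase of initiation, Eif4a1, had 257 and 346 TPM and its paralog Eif4a2 78.7 and 144, a ratio of 2.84 ± 0.612 (SD, n = 2). Eif4a1 was the higher of that pair in both libraries.

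The cap-binding proteins did not keep their order. Eif4e had 148 and 195 TPM, while Eif4e2, a cap-binding relative that acts mainly as a repressor, had 238 and 43.1. Eif4e was therefore 0.623-fold of Eif4e2 in replicate 1 and 4.52-fold in replicate 2. Eif4e1b, a form known from oocytes, and Eif4e3 had no read in either library. Eif4e3 shares 219 bases on the same strand with the gene Gm20696, which had 1340 reads in replicate 1. Among the scaffolds, Eif4g2 exceeded Eif4g1 by 4.76 ± 0.128-fold in TPM (SD, n = 2), although each was more than 2-fold lower in replicate 1. Expected counts were 32987 and 45116 for Eif4g2 and 5853 and 13860 for Eif4g1, so the ratio was steady in TPM only. Eif4g3 was the lowest scaffold with 4.77 and 14.4 TPM.

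The eIF4E binding proteins hold eIF4E away from eIF4G until the TOR kinase phosphorylates them. Eif4ebp1 had 230 and 195 TPM and Eif4ebp2 22.1 and 16.9, a ratio of 11 ± 0.779 (SD, n = 2), so Eif4ebp1 led by about the same factor in both libraries. Eif4ebp3 was read in replicate 1 only, at 14.7 TPM from 281 reads. Eif4enif1, which carries eIF4E into the nucleus, had 1 read in replicate 1 and 49.7 TPM from 3313 reads in replicate 2. Eif4e had 0.643-fold the TPM of Eif4ebp1 in replicate 1 and 1.00-fold in replicate 2. Of 9 TOR and MNK pathway genes, 7 were detected in both libraries. Their highest mean was that of Rheb, the GTPase that activates TOR, with 19.9 and 59.1 TPM, and the lowest that of Akt1s1 with 0 and 1.99.

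Eif5a, a small factor that carries the modified amino acid hypusine and relieves stalled ribosomes, was the second gene of the list (chromosome 11, 69916714 to 69921958, mm10). It had 2334 TPM in replicate 1 and 2239 in replicate 2, a mean of 2287 ± 66.8 (SD, n = 2), and ranked 27th of all genes. Its paralog Eif5a2 was nearly unread, with 5 reads in all, from replicate 1. The enzymes that make hypusine were less even: Dhps had 122 and 36.8 TPM, and Dohh 107 and 2.55. With the diphthamide enzymes of eEF2 added, 6 of 8 modification genes were detected in both libraries, and the highest was Dph3 with 90.9 and 252 TPM, the lowest Dph6 with 0.08 and 2.9. Eif6, which keeps the large subunit apart until it is needed, had 192 and 148 TPM.

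Eef1a1, the factor that delivers aminoacyl-tRNA, was the highest gene of the list (chromosome 9, 78478449 to 78489151, mm10). It had 4089.5 TPM in replicate 1 and 3846 in replicate 2, a mean of 3968 ± 172 (SD, n = 2), and ranked 13th of all genes. Eef1a2, the form known from adult muscle and neurons, had no read in either library. Eef1a1 exceeded Eif5a by 1.73 ± 0.0247-fold (SD, n = 2). The 4 annotated pseudogenes that match Eef1a1 at 95% identity or more over at least 200 bases held 13.9 and 13.8 TPM together, or 0.338% and 0.357% of the sum with Eef1a1.

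The exchange subunits that recycle eEF1A followed. Eef1b2 had 739 and 515 TPM, Eef1g 492 and 614, and Eef1d 419 and 565. Their order changed between the libraries, and all of them stayed within 2-fold. Eef2, the translocase, had 466 and 224 TPM, so that Eef1a1 exceeded it 8.78-fold in replicate 1 and 17.2-fold in replicate 2. Eef1e1, a factor of the synthetase complex, had 230 and 144 TPM. Levels in TPM compare RNA per length and say nothing of protein.

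Of 5 enzymes that act on elongation factors, 2 were detected in both libraries. Eef1akmt1, a lysine methyltransferase of eEF1A, had 107 and 152 TPM. Eef2kmt, the methyltransferase of eEF2, had 58.7 and 11.1 TPM. It shares 474 bases with Alg1 on the opposite strand, which was also lower in replicate 2, at 24.2 and 6.6 TPM. Eef2k, the kinase that inhibits eEF2, had no read in replicate 1 and 0.56 TPM from 34 reads in replicate 2. Eef1akmt3 was at 0.18 and 0.03 TPM and Eef1akmt2 had no read in either. Genes with no read were not detected in these libraries, where 0 reads allow up to 0.0901 counts on the CPM scale in replicate 1 and 0.092 in replicate 2, and this does not show that they are absent from the tissue.

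Other genes of translation gave levels for comparison. All 6 poly(A)-binding proteins and partners were detected in both libraries, led by Pabpc1, the main cytoplasmic poly(A)-binding protein, at 458 and 375 TPM, with Paip2b lowest at 11.4 and 7.31. Of 8 release and recycling genes, 6 were detected in both, with Denr highest at 97.3 and 81.1 TPM and Gspt2 lowest at 0 and 5.72. Of 9 mitochondrial translation factors, 7 were detected in both, with Tufm, the mitochondrial counterpart of eEF1A, highest at 210 and 142 TPM and Mtif2 lowest at 3.01 and 4.67. Median log2 levels were 5.93, 5.52 and 5.63 for these lists, and 6.45 for the 64 factor genes. By factor group the medians ran from 0.32 for the elongation factor modifying enzymes to 8.93 for the eEF1 and eEF2 group.

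Differences between the libraries were then counted over the 52 genes whose mean reached 10 TPM. The log2 ratio of TPM + 1, replicate 2 over replicate 1, was centred on its median over all protein-coding autosomal genes at that level, and at least 2-fold was counted as apart. By this rule 15 of the 52 were apart, or 28.8%, where 51.5% of 6144 genes were. Of the 15, 9 were higher in replicate 2 (17.3%, background 25.5%) and 6 in replicate 1 (11.5%, background 26%). Centred on spike-ins instead, which lowers the median gene by 0.42 on the log2 scale, 18 were apart, 6 higher in replicate 2 and 12 in replicate 1, so which library holds more of the higher calls depends on the scaling.

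The contrast with the background differed by level. At a mean TPM of 100 to 1000, 8 of 29 factor genes were apart (27.6%) and 21.8% of all genes, and the median absolute log2 ratio was 0.50 and 0.51. At 10 to 100 TPM, 7 of 20 were apart (35%) and 60.3% of all genes. At 1000 TPM or more, 0 of the 3 factor genes were apart and 1 of 120 genes in all (0.833%). No replicate check of these differences is possible, because each replicate is 1 library.

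**Figure D3:**
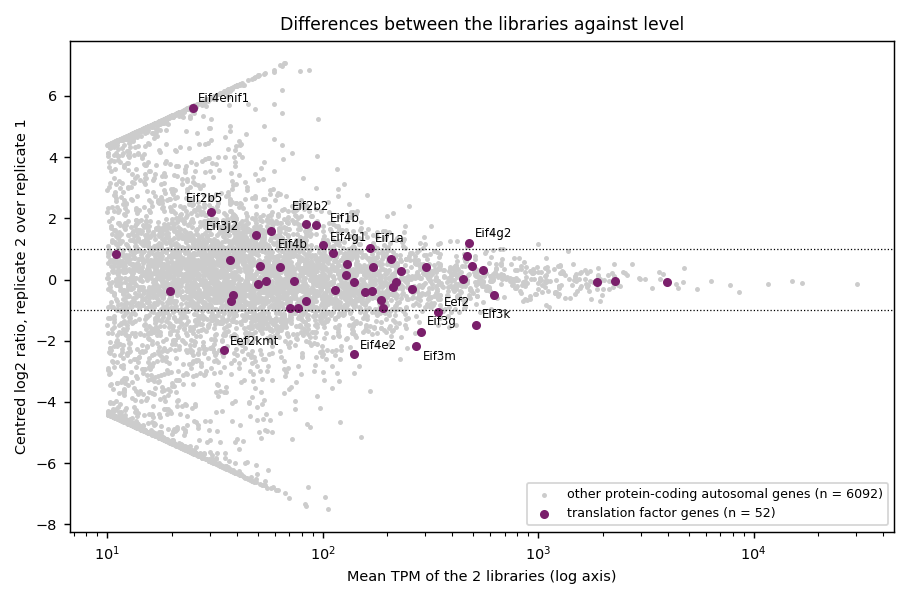
Centred log2 ratio of TPM + 1, replicate 2 over replicate 1, against mean TPM on a log axis, for the 52 factor genes (dark points) and the other protein-coding autosomal genes whose mean reached 10 TPM (grey). Dotted lines mark 2-fold, the 15 named genes lie beyond them, and the spread of both sets narrows to the right.

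The largest differences towards replicate 2 were those of Eif4enif1, Eif2b5, Eif2b2, Eif1b and Eif4b, with centred log2 ratios of 5.61, 2.19, 1.81, 1.77 and 1.58. Eif4b, the cofactor of the eIF4A helicase, had 28.4 and 86.8 TPM. Towards replicate 1 the largest were Eif4e2 at -2.44, Eef2kmt at -2.30, Eif3m at -2.17, Eif3g at -1.72 and Eif3k at -1.49. Eef2 also passed the rule, at -1.06. By the 2-fold rule, 3 of the 14 eIF3 genes were higher in replicate 1 (background 26%) and 1 in replicate 2 (background 25.5%). Of the 9 eIF4 genes whose mean reached 10 TPM, the rule put Eif4e2 higher in replicate 1 and Eif4g2, Eif4g1 and Eif4b higher in replicate 2. Summed over the group, eIF3 had 3500 and 2180 TPM and the eIF4 group 1576 and 2361. Heart muscle, mesenchymal and macrophage markers also differed between the libraries, and their part in these values was not tested.

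Of the 15 genes, 14 were also 2-fold apart in the same direction on expected counts scaled to CPM, which have no length term. The exception was Eif4g2, with 32987 reads in replicate 1 and 45116 in replicate 2. Its deposited effective length was 3846 bases in replicate 1 and 2295 in replicate 2. In replicate 1 a transcript with an effective length of 5078 bases held 68.7% of its abundance, and in replicate 2 one of 330 bases held 46.4%.

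The transcript with the highest TPM, the leading transcript, was compared for 32 genes whose mean reached 10 TPM and that had several annotated transcripts and reads in each library. It differed in 10 of them, or 31.2%, against 37.7% of 4194 genes. At a mean TPM of at least 100 it differed in 6 of 18 (33.3%), against 13.8% of 1018 genes. The 10 were Eef1b2, Eef2kmt, Eif1, Eif1a, Eif2b5, Eif4a2, Eif4enif1, Eif4g1, Eif4g2 and Eif5b. For Eif4enif1 the leading transcript of replicate 1 rests on 1 read, so its difference carries little weight. Eif5b went from 91.4% to 21.2% for the transcript that led in replicate 1, and its gene shares 421 bases with Rev1 on the opposite strand, at 12.5 and 15.6 TPM. For Eif1 the leading transcripts held 42.9% in replicate 1 and 45.2% in replicate 2. The latter had an effective length of 284 bases, against 1223 bases for the former. In replicate 1 the order was close, as the shorter transcript held 39.7% there. Eef1a1 and Eif5a kept 1 leading transcript, with 71.9% and 76.4%, and 79% and 85.2%, of the gene's abundance.

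**Figure D4:**
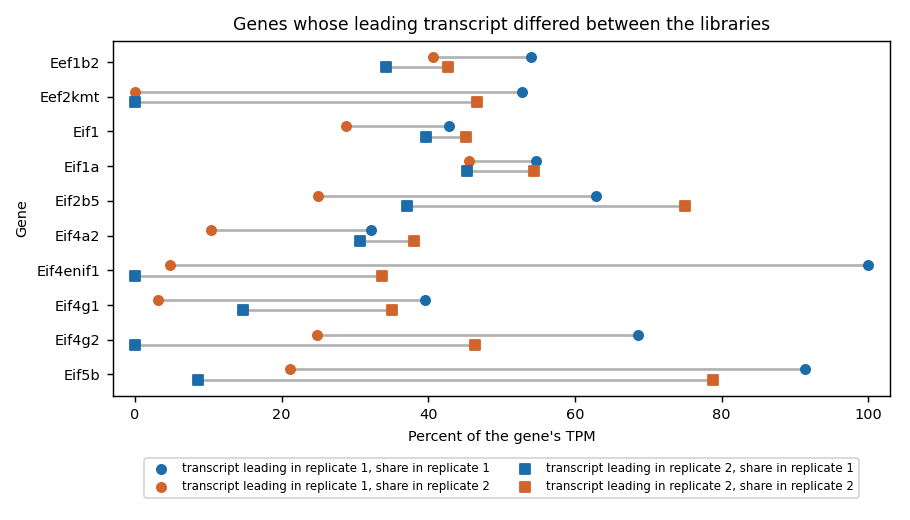
For the 10 genes whose leading transcript differed, the percent of the gene's TPM held by the transcript that led in replicate 1 (circles) and by the one that led in replicate 2 (squares), coloured by library. Lines join the same transcript in both libraries, and they are short for Eif1a and Eef1b2 and long for Eif5b, Eif4enif1 and Eif4g2. The replicate 1 shares of Eif4enif1 rest on 1 read.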

How the data were processed

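The deposited tables hold, per library, estimated values for 43346 Ensembl genes, 97 spike-ins and 26248 rows with numeric identifiers. Per the file headers, the authors deposited expected counts (estimated reads per gene or transcript), TPM scaled to a fixed sum over all rows including spike-ins, posterior mean TPM with credibility bounds, and each transcript's percent of its gene. The assembly is mm10 with GENCODE release M4, per the deposited descriptions; no aligner or quantification program is named in these sources. Depth was 33289699 and 32607453 reads, and intervals are not given because PCR copies are not independent.

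Symbols and coordinates came from GENCODE M21, a later release: 42462 Ensembl rows matched and 884 did not. Gcn1 was matched through its older symbol. The factor genes and the lists were chosen with earlier results of these data known. Named genes were the highest, second and lowest of each complex, set pairs, all eIF2 kinases and 4E-binding proteins, genes under TPM 1, and the 5 largest ratios each way; others were named after their values were seen. Centred log2 ratios between the libraries used a pseudocount of 1, and their computation was tested on simulated data; ratios between genes used TPM with no pseudocount. Transcripts were aligned with BLAST 2.17.0 (95% identity, 200 bases) to find 22 factor genes with an overlapping gene or a near-identical copy. Promoter windows are RefSeq's, 1 a gene, nearest the GENCODE gene start. Python 3.11.15, numpy 2.4.6 and pandas 2.3.3 were used. Alternatives were other abundance estimates, scales, thresholds, pseudocounts, centring and single libraries.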

Additional observations from a re-analysis of the deposited data

How the results depend on the processing

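No paired analysis was possible because the libraries form 1 group. The count of 52 genes detected in both libraries was 50 to 52 under posterior mean TPM, rescaling, CPM, the lower credibility bound and TPM thresholds of 0.1 and 10, and 53 to 54 in single libraries. Leaving out spike-ins and rows without an Ensembl identifier raised the share of TPM to 1.82%, the Eef1a1 level to 4254 TPM and the median log2 level to 6.55. Expected counts scaled to CPM gave a share of 2.18%, an eEF share of the list of 34.4%, 4862 CPM for Eef1a1 and a median of 7.38. The median was 7.01 over genes whose mean reached 1 TPM, and 6.61 to 6.65 in single libraries.

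The ratio of Eif2ak1 to the other kinases summed was 35.5 with posterior mean TPM, 58.9 after rescaling, 51.7 on CPM and 28.2 without replicate 1. It could not be computed without replicate 2, where the divisor is 0. The cause of the posterior mean's value was not tested. A 4-fold rule left 5 genes apart in place of 15, and every other setting gave 15 to 18. Where the mean reached 100 TPM, 6 genes had different leading transcripts in place of 10. In single libraries the Eif4a1 to Eif4a2 ratio was 2.41 to 3.27, the share of TPM 1.65% to 1.75%, the eEF share 35.8% to 36.8% and Eef1a1 3846 to 4089.5 TPM. Low input, at 1 cell-equivalent and 1 library per replicate, limits every value.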
